A study of Homo sapiens with 12 samples.

Results

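The G1 cyclins, cyclin-dependent kinases (CDKs) and CDK inhibitors described here are 10 genes measured in A549/DDP, a cisplatin-resistant line derived from A549 lung adenocarcinoma cells: CCND1, CCND3, CCNE1, CCNE2, CDK2, CDK4, CDK6, CDKN1A, CDKN1B and CDKN2C. They were taken by symbol from count and FPKM tables of 61510 genes, and all 10 were among the 15653 genes tested. The 4 groups were shNRF2 GNA, shNRF2 DMSO, shNC GNA and shNC DMSO, with 3 RNA sequencing libraries in each. The shNRF2 line carries a hairpin against NRF2, the antioxidant transcription factor encoded by NFE2L2, and the shNC line a control hairpin. GNA is gambogenic acid, a compound from gamboge resin, given at 4 µM for 24 h from 70% confluence, with DMSO as vehicle. All groups grew in medium with 1 µg/ml cisplatin (DDP), so no group is free of it. The labels give neither the hairpin sequences nor whether a line is a clone, and they do not say if replicate libraries stem from different cultures. The p-values therefore rest on library-to-library spread that may be technical. With a single line for each hairpin, an effect of the hairpin and any other difference between the lines cannot be told apart. A change with the hairpin below means the shNRF2 line against the shNC line.

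D-type cyclins (CCND1, CCND3) bind CDK4 and CDK6 and begin the phosphorylation of the RB protein, which frees E2F factors to turn on S phase genes. E-type cyclins (CCNE1, CCNE2) bind CDK2 and complete this step. The CIP/KIP inhibitors p21 (CDKN1A) and p27 (CDKN1B) bind cyclin-CDK complexes and block CDK2, and the INK4 inhibitor p18 (CDKN2C) binds CDK4 and CDK6.

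Library totals ran from 12848607 to 17192671 counts. NFE2L2 checked the hairpin labels: it stood at 45.8 ± 2.00 CPM in shNRF2 GNA and 87.4 ± 3.85 CPM in shNC GNA, and at 50.2 ± 2.80 CPM in shNRF2 DMSO and 77.9 ± 3.6 CPM in shNC DMSO (SD, n = 3 each). The hairpin changed it by -0.93 on the log2 scale under GNA (edgeR adjusted p = 9.0e-12) and by -0.64 under DMSO (edgeR adjusted p = 1.2e-08). CPM values here divide each count by its library's TMM-adjusted total. Of the epithelial markers, KRT8 and KRT18 were abundant in every library and KRT19 stayed under 1 CPM. The 5 epithelial markers summed to 9458 to 9933 CPM in shNRF2 GNA and 15289 to 15890 CPM in shNRF2 DMSO, and to 9743 to 10024 CPM in shNC GNA and 15649 to 16547 CPM in shNC DMSO. Summed fibroblast markers stayed between 7.21 and 9.70 CPM in all 12 libraries, and endothelial and leukocyte markers stayed under 1 CPM. The epithelial sum, carried by KRT8 and KRT18, was lower in the GNA groups, where most members were lower too, and its part in those changes was not tested. CDH1 and EPCAM were not called lower. CDH1 averaged 66.6 CPM in shNRF2 GNA and 63.6 CPM in shNRF2 DMSO (edgeR adjusted p = 0.54), and it was higher in shNC GNA, at 45.3 CPM, than in shNC DMSO, at 33.0 CPM (log2 0.46, edgeR adjusted p = 7.2e-05). CDH1 was also higher with the hairpin, by 0.56 under GNA and 0.95 under DMSO. EPCAM averaged 2.96 CPM in shNRF2 GNA, 2.32 CPM in shNRF2 DMSO, 3.37 CPM in shNC GNA and 3.00 CPM in shNC DMSO, with no call.

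GNA lowered most of the G1 genes in both lines and raised CDKN1A in both. In shNRF2 cells 9 of the 10 members changed, where 33.7% of all tested genes were called. Of these 1 was higher and 8 were lower, beside 16.7% of all genes higher and 17% lower. In shNC cells 8 of the 10 changed, against 30.7% of all genes. Of these 1 was higher and 7 were lower, beside 14.6% of all genes higher and 16.1% lower. A call is an adjusted p under 0.05 in edgeR's quasi-likelihood test, Benjamini-Hochberg adjusted over all tested genes. The median log2 change of the 10 members was -0.41 in shNRF2 cells and -0.31 in shNC cells, where the medians of all genes were 0.01 and 0.02. The libraries of GNA and DMSO did not overlap for 9 members in shNRF2 cells, 1 higher and 8 lower, where 44.9% of all genes did not overlap (22.8% higher, 22.1% lower). In shNC cells they did not overlap for 7 members, 1 higher and 6 lower, where 40.7% of all genes did not (20.5% higher, 20.2% lower). In a bulk library, fewer cells in the phase that expresses a gene and less of its RNA per cell cannot be told apart.

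The NRF2 hairpin touched fewer members. Under GNA it lowered 3 and raised 1 of the 10, with 26.1% of all genes called (13.3% lower, 12.8% higher). Under DMSO it also lowered 3 and raised 1, with 35.2% of all genes called (18.3% lower, 16.8% higher). The share under DMSO lies near the background, and its balance depended on the scaling: 2 were lower and 3 higher with library totals, and 2 lower and 2 higher with upper-quartile factors and in both limma fits of FPKM. Libraries of the lines did not overlap for 5 members under GNA, 3 lower and 2 higher, where 40.9% of all genes did not (19.7% lower, 21.2% higher). Under DMSO they did not overlap for 4 members, 2 lower and 2 higher, where 43.2% of all genes did not (21.9% lower, 21.3% higher). CCND1 was lower and CDKN1B higher in shNRF2 cells under both treatments. The response to GNA itself differed between the lines for 2 members, CCND3 and CDKN1A, while 6.82% of all genes were called in that test of the difference. CCND3 was 1 member on the lower side (3.24% of all genes) and CDKN1A 1 member on the higher side (3.58% of all genes).

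**Figure D1:**
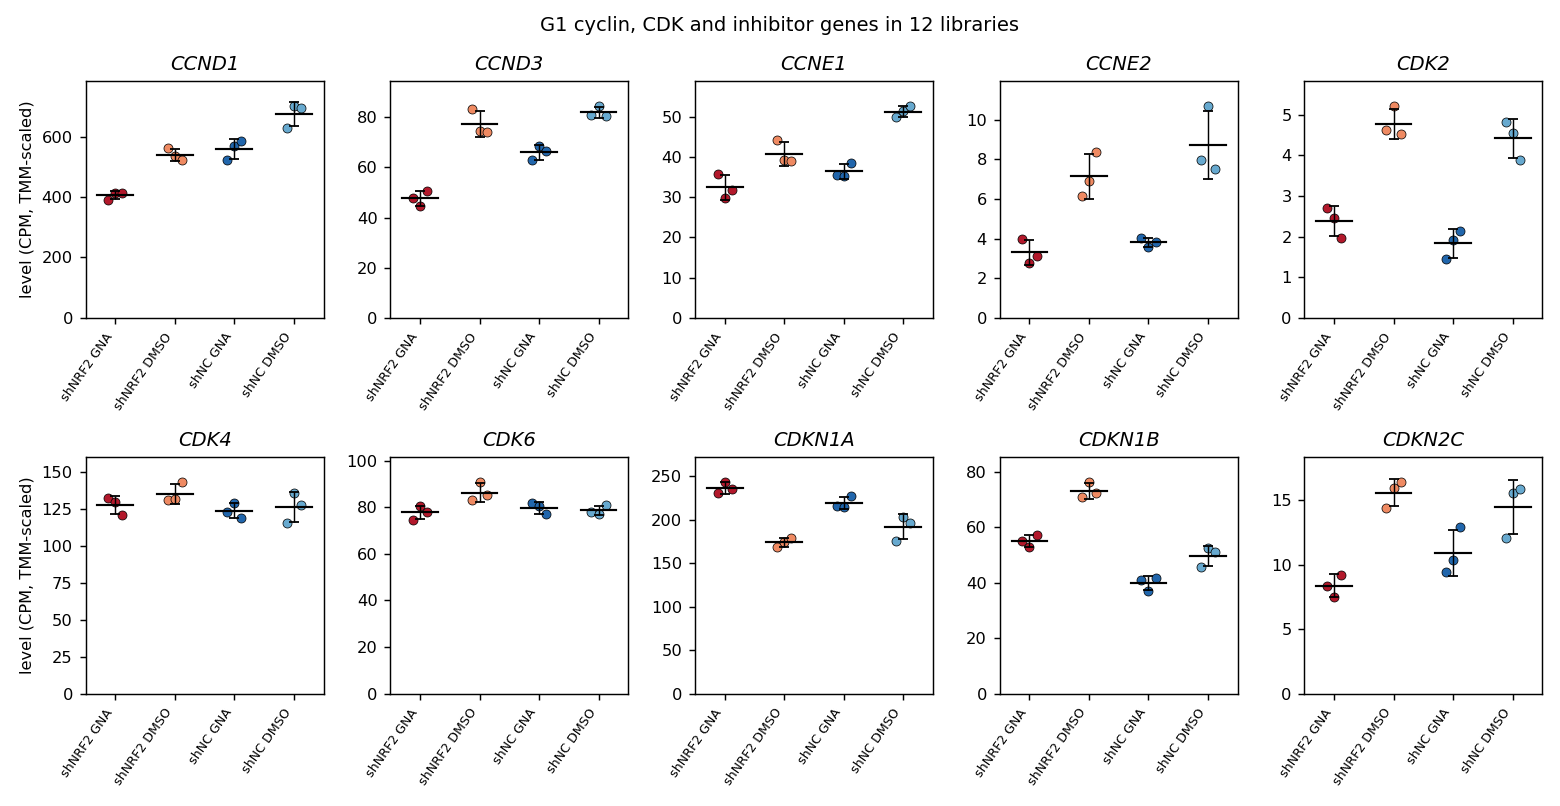
Levels of the 10 genes in each library (points, TMM-scaled CPM, linear axes from 0), with the mean (bar) and SD (whisker) of the 3 libraries per group. CCND1, CCND3, CCNE1, CCNE2 and CDK2 sit lower in both GNA groups than in the DMSO group of the same line, and CDKN1A sits higher.

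Compared per length, CCND1 had the highest level of the 10 genes in every group and CDK2 the lowest. CCND1 averaged 88.0 FPKM in shNRF2 GNA, 112 FPKM in shNRF2 DMSO, 120.1 FPKM in shNC GNA and 135 FPKM in shNC DMSO. CDK2 averaged 0.633, 1.22, 0.482 and 1.08 FPKM in the same order of groups. FPKM divides a count by the gene's length and the library total. Below CCND1 the order was CDKN1A, CDK4, CCNE1 and CCND3 in all 4 groups, with no overlap of libraries between neighbours. CDKN2C, CCNE2 and CDK2 closed the order in all 4 groups. CCNE2 and CDK2 overlapped in shNRF2 GNA but in none of the other 3 groups. The place of CDKN1B is uncertain, because its deposited FPKM implies a gene length of 9255 bases where GENCODE 29 gives 2811 exonic bases. In CDKN2C the implied and annotated lengths were 3018 and 3318 bases, and in the other 8 members they lay nearer to each other. The implied length of CDKN1B is longer than its whole span in GENCODE 29 (12715058 to 12722371), so which bases were counted is not known. This affects the FPKM of CDKN1B against other genes. Whether it also affects the differences of CDKN1B between groups was not tested.

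Among the D-type cyclins, CCND1 (cyclin D1, chromosome 11, 69641087 to 69654474, plus strand, GRCh38) is the main cyclin partner of CDK4 and CDK6 in many epithelial cells. Its levels were 391, 414 and 412 CPM in shNRF2 GNA, against 562, 538 and 522 CPM in shNRF2 DMSO. In the control line they were 524, 569 and 585 CPM in shNC GNA, against 629, 700.2 and 696 CPM in shNC DMSO. Every GNA library lay below every DMSO library of its line, and every shNRF2 library lay below every shNC library of the same treatment. GNA changed CCND1 by a log2 fold change of -0.41 ± 0.05 (SE) in shNRF2 cells (edgeR adjusted p = 3.1e-07) and by -0.27 ± 0.05 in shNC cells (edgeR adjusted p = 0.00015). The hairpin changed it by -0.46 ± 0.05 under GNA (edgeR adjusted p = 8.1e-08) and by -0.32 ± 0.05 under DMSO (edgeR adjusted p = 1.5e-05). The difference of its GNA responses, shNRF2 minus shNC, was -0.14 with a 95% interval of -0.29 to 0.01 (edgeR adjusted p = 0.27). LTO1, on the opposite strand, shares 497 exonic bases with CCND1, 10.3% of its exons, and whether the counting used strand is not given in the sources used here.

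CCND3 (cyclin D3, chromosome 6, 41934933 to 42050357, minus strand) responded to GNA by more in the shNRF2 line. It stood at 47.9, 44.6 and 50.5 CPM in shNRF2 GNA, against 83.2, 74.3 and 73.9 CPM in shNRF2 DMSO. It stood at 62.8, 68.6 and 66.6 CPM in shNC GNA, against 81.0, 84.3 and 80.5 CPM in shNC DMSO. The shNRF2 GNA libraries lay apart below all 9 others, while the 2 DMSO groups overlapped. GNA left CCND3 at 61.7% of the DMSO level in shNRF2 cells (log2 -0.70 ± 0.07, edgeR adjusted p = 2.5e-09) and at 80.6% in shNC cells (log2 -0.31 ± 0.06, edgeR adjusted p = 0.00041). The difference of the responses, shNRF2 minus shNC, was -0.39 ± 0.09 (edgeR adjusted p = 0.0095). The hairpin lowered CCND3 under GNA by a log2 change of -0.47 ± 0.07 (edgeR adjusted p = 3.7e-06). Under DMSO the change was -0.09, with a 95% interval of -0.22 to 0.04 (edgeR adjusted p = 0.32).

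The catalytic partners of the D-type cyclins moved little. CDK4 (chromosome 12, 57747727 to 57756013, minus strand) ranged from 121 to 132 CPM in shNRF2 GNA, 131 to 143 CPM in shNRF2 DMSO, 119 to 129 CPM in shNC GNA and 116 to 136 CPM in shNC DMSO. Libraries overlapped between GNA and DMSO in both lines and between the lines under both treatments, and no comparison was called. With library totals as scaling the hairpin difference in DMSO, 0.10 with TMM, was called at 0.15 (edgeR adjusted p = 0.043). The GNA change of CDK4 was -0.08 in shNRF2 cells (95% interval -0.21 to 0.04) and -0.03 in shNC cells (95% interval -0.16 to 0.09); the sign in shNC cells turned positive under upper-quartile factors (0.0015), library totals (0.07) and the FPKM fits (0.07), all uncalled. TSPAN31, on the opposite strand, covers 43.2% of the exonic bases of CDK4 at 8.05 to 11.5 CPM on average per group, so reads of that gene could be counted in CDK4 if strand was not used.

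CDK6 (chromosome 7, 92604921 to 92836594, minus strand) stood at 74.7, 80.6 and 78.1 CPM in shNRF2 GNA, against 82.9, 90.8 and 85.2 CPM in shNRF2 DMSO. In the control line it stood at 82.0, 80.6 and 76.9 CPM in shNC GNA, against 78.1, 77.2 and 80.9 CPM in shNC DMSO. The shNRF2 groups did not overlap and the shNC groups did. The GNA change in shNRF2 cells, -0.15 ± 0.06, passed narrowly (edgeR adjusted p = 0.047). That call was lost in 14 of 22 alternatives, at adjusted p-values up to 0.26. In shNC cells the change was 0.02, with a 95% interval of -0.10 to 0.14. In DMSO the hairpin difference of CDK6 was 0.13 ± 0.06 (edgeR adjusted p = 0.077), and it was called under upper-quartile factors, library totals and both FPKM fits. Per length, CDK6 stayed at 14.3% to 17.4% of CDK4 in all 12 libraries.

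Both E-type cyclins were lower with GNA, CCNE2 by more than CCNE1. CCNE1 (cyclin E1, chromosome 19, 29811898 to 29824308, plus strand) stood at 35.8, 29.8 and 31.7 CPM in shNRF2 GNA, against 44.3, 39.2 and 39.0 CPM in shNRF2 DMSO. It stood at 35.6, 35.2 and 38.6 CPM in shNC GNA, against 49.96, 51.3 and 52.6 CPM in shNC DMSO. The shNC DMSO libraries lay above the other 9, and the 2 GNA groups overlapped. GNA changed CCNE1 by -0.34 ± 0.08 in shNRF2 cells (edgeR adjusted p = 0.0012) and by -0.49 ± 0.08 in shNC cells (edgeR adjusted p = 1.1e-05). The hairpin lowered it under DMSO (-0.33 ± 0.08, edgeR adjusted p = 0.0012). Under GNA the hairpin change was -0.17 ± 0.08 (edgeR adjusted p = 0.11), and it was called only without shNRF2 GNA library 1 (edgeR adjusted p = 0.038).

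CCNE2 (cyclin E2, chromosome 8, minus strand) stood at 4.00, 2.79 and 3.14 CPM in shNRF2 GNA, against 6.17, 6.89 and 8.36 CPM in shNRF2 DMSO. It stood at 4.03, 3.58 and 3.81 CPM in shNC GNA, against 7.99, 10.7 and 7.52 CPM in shNC DMSO. The GNA and DMSO libraries were separate in both lines, and the 2 lines overlapped under both treatments. GNA left CCNE2 at 46.2% of the DMSO level in shNRF2 cells (log2 -1.11 ± 0.19, edgeR adjusted p = 3.9e-05) and at 43.5% in shNC cells (log2 -1.20 ± 0.18, edgeR adjusted p = 9.0e-06). As a share of CCNE1 FPKM, CCNE2 was 5.68% ± 0.516 in shNRF2 GNA and 9.87% ± 2.10 in shNRF2 DMSO, and 5.85% ± 0.427 in shNC GNA and 9.53% ± 1.88 in shNC DMSO (SD, n = 3 each). INTS8, on the opposite strand, covers most of the 37.1% of CCNE2 exonic bases that other genes share. Reads of INTS8 could be counted in CCNE2 if strand was not used, and the size of that share was not tested. INTS8 was called in neither line: its GNA change was 0.17 in shNRF2 cells (edgeR adjusted p = 0.19) and -0.21 in shNC cells (edgeR adjusted p = 0.096).

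CDK2, the kinase of the E-type cyclins (chromosome 12, 55966769 to 55972784, plus strand), fell with GNA by about as much as CCNE2. It stood at 2.71, 2.47 and 1.97 CPM in shNRF2 GNA, against 4.62, 5.21 and 4.52 CPM in shNRF2 DMSO. It stood at 1.44, 1.91 and 2.15 CPM in shNC GNA, against 4.82, 4.54 and 3.89 CPM in shNC DMSO. These levels rest on 20 to 74 counts per library, but the GNA and DMSO libraries were separate in both lines. GNA left CDK2 at 49.7% of the DMSO level in shNRF2 cells (log2 -1.01 ± 0.21, edgeR adjusted p = 0.00042) and at 41.9% in shNC cells (log2 -1.25 ± 0.22, edgeR adjusted p = 5.8e-05). The hairpin changes were 0.36 under GNA (95% interval -0.13 to 0.84) and 0.11 under DMSO (95% interval -0.29 to 0.51), neither called. CDK2 shares 16.8% of its exonic bases with opposite-strand genes: 565 bases with the antisense gene AC025162.1 and 89 with PMEL. PMEL averaged under 1 CPM in each group, and the level of AC025162.1 was not examined. Reads of these genes could be counted in CDK2 if strand was not used.

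**Figure D2:**
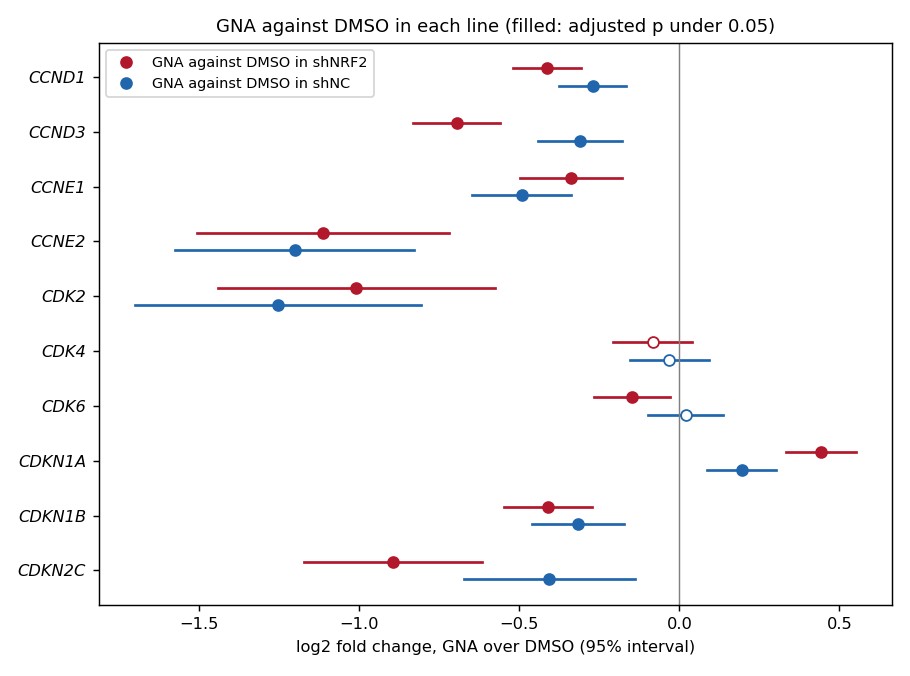
Log2 fold change of each gene, GNA over DMSO, in shNRF2 cells (red, upper) and shNC cells (blue, lower), with 95% intervals; filled points have an edgeR adjusted p under 0.05. CCNE2 and CDK2 lie farthest left in both lines, CDKN1A is the gene to the right of 0 with a call, and the intervals of CCND3 and of CDKN1A do not overlap between the lines.

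Of the CIP/KIP inhibitors, CDKN1A and CDKN1B moved in opposite directions with GNA. CDKN1A (p21, chromosome 6, 36676460 to 36687339, plus strand), a target of p53 and of stress signalling, stood at 231, 243 and 236 CPM in shNRF2 GNA, against 168, 174 and 179 CPM in shNRF2 DMSO. It stood at 216, 215 and 227 CPM in shNC GNA, against 176, 204 and 196 CPM in shNC DMSO. The shNRF2 GNA libraries were the highest of all 12, and GNA libraries lay above DMSO libraries in both lines. GNA raised CDKN1A to 136% of the DMSO level in shNRF2 cells (log2 0.44 ± 0.05, edgeR adjusted p = 1.8e-07) and to 114% in shNC cells (log2 0.19 ± 0.05, edgeR adjusted p = 0.0059). The difference of the responses was 0.25 ± 0.08 (edgeR adjusted p = 0.043). It was lost in 13 of 21 alternatives, at adjusted p-values up to 0.13, among them 9 of the 12 fits without 1 library. The hairpin change was 0.11 under GNA (edgeR adjusted p = 0.14), although the libraries of the lines did not overlap. Under DMSO it was -0.14 ± 0.05 (edgeR adjusted p = 0.041), with overlapping libraries, and that call was lost in 13 of 22 alternatives.

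CDKN1B (p27, chromosome 12, 12715058 to 12722371, plus strand), which holds cyclin E and CDK2 inactive in resting cells, was the 1 member called higher with the hairpin. It stood at 54.97, 52.9 and 57.2 CPM in shNRF2 GNA and at 41.0, 37.1 and 41.7 CPM in shNC GNA. Under the vehicle it stood at 70.8, 76.3 and 72.5 CPM in shNRF2 DMSO and at 45.6, 52.4 and 51.2 CPM in shNC DMSO. No 2 groups overlapped, shNRF2 DMSO being the highest and shNC GNA the lowest. The hairpin raised CDKN1B to 138% of the shNC level under GNA (log2 0.46 ± 0.07, edgeR adjusted p = 1.1e-05) and to 147% under DMSO (log2 0.56 ± 0.07, edgeR adjusted p = 2.9e-07). GNA lowered it by a log2 change of -0.41 ± 0.07 in shNRF2 cells (edgeR adjusted p = 2.0e-05) and of -0.32 ± 0.07 in shNC cells (edgeR adjusted p = 0.00088). The responses differed by -0.09, with a 95% interval of -0.29 to 0.11. Which bases were counted for CDKN1B is not known, given its implied length above.

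CDKN2C (p18, chromosome 1, 50960745 to 50974633, plus strand) is the INK4 inhibitor with the highest level here. It stood at 8.37, 7.47 and 9.23 CPM in shNRF2 GNA, against 14.4, 15.9 and 16.4 CPM in shNRF2 DMSO. It stood at 9.43, 10.4 and 12.9 CPM in shNC GNA, against 12.1, 15.5 and 15.8 CPM in shNC DMSO. The shNRF2 groups were separate, and in shNC the highest GNA library lay above the lowest DMSO library. GNA left CDKN2C at 53.8% of the DMSO level in shNRF2 cells (log2 -0.89 ± 0.14, edgeR adjusted p = 6.7e-06). In shNC cells it was at 75.4% (log2 -0.41 ± 0.13, edgeR adjusted p = 0.018). That call was lost in 7 of 22 alternatives: with library totals (0.076), in both limma fits of FPKM (0.109 and 0.108), and without shNC DMSO library 2 or 3 or shNC GNA library 1 or 2 (adjusted p 0.072 to 0.092). The difference of the responses was -0.49, with a 95% interval of -0.87 to -0.10 (edgeR adjusted p = 0.13). Under GNA the hairpin change was -0.39 ± 0.14 (edgeR adjusted p = 0.040), with the shNRF2 libraries all lower; the call was lost in 6 of 22 alternatives. These were both limma fits of FPKM (adjusted p 0.087 and 0.078) and the fits without shNC GNA library 2 or 3 or without shNRF2 GNA library 1 or 2 (adjusted p 0.054 to 0.26). In DMSO it was 0.10, with a 95% interval of -0.16 to 0.36.

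**Figure D3:**
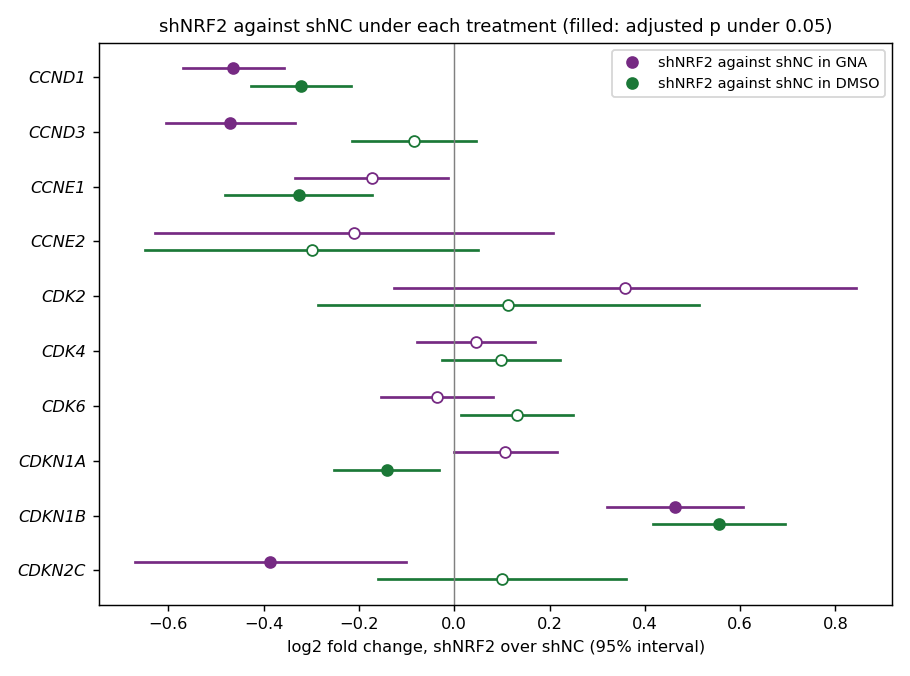
Log2 fold change of each gene, shNRF2 over shNC, under GNA (purple, upper) and DMSO (green, lower), with 95% intervals; filled points have an edgeR adjusted p under 0.05. CDKN1B lies right of 0 and CCND1 left of 0 under both treatments, and CCND3 is filled under GNA alone.

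The ratio of CDKN1A to CCND1 RNA moved with both factors. CDKN1A reached 92.7% ± 1.57 of the CCND1 FPKM in shNRF2 GNA and 51.3% ± 3.49 in shNRF2 DMSO (SD, n = 3 each). It reached 62.5% ± 2.81 in shNC GNA and 45.1% ± 0.956 in shNC DMSO. No 2 groups overlapped in this ratio. CDK2 was 1.48% ± 0.170 of the CDK4 FPKM in shNRF2 GNA and 2.82% ± 0.313 in shNRF2 DMSO, and 1.18% ± 0.254 in shNC GNA and 2.80% ± 0.464 in shNC DMSO. CCND3 as a share of CCND1 was 9.72% ± 0.709 in shNRF2 GNA and 11.8% ± 0.409 in shNRF2 DMSO, and 9.76% ± 0.312 in shNC GNA and 10.0% ± 0.553 in shNC DMSO. The shNRF2 DMSO libraries were the highest in that ratio, and the other 3 groups overlapped. CDKN1B was 45.3% ± 3.94 of the CCNE1 FPKM in shNRF2 GNA and 47.9% ± 4.84 in shNRF2 DMSO, with overlapping libraries. In the control line it was 29.1% ± 1.30 in shNC GNA and 25.8% ± 1.43 in shNC DMSO, without overlap. The gene length and the counted bases behind the CDKN1B FPKM are uncertain, which affects the level of this ratio. Whether they also affect its direction between groups was not tested. All these ratios are descriptions without a test.

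**Figure D4:**
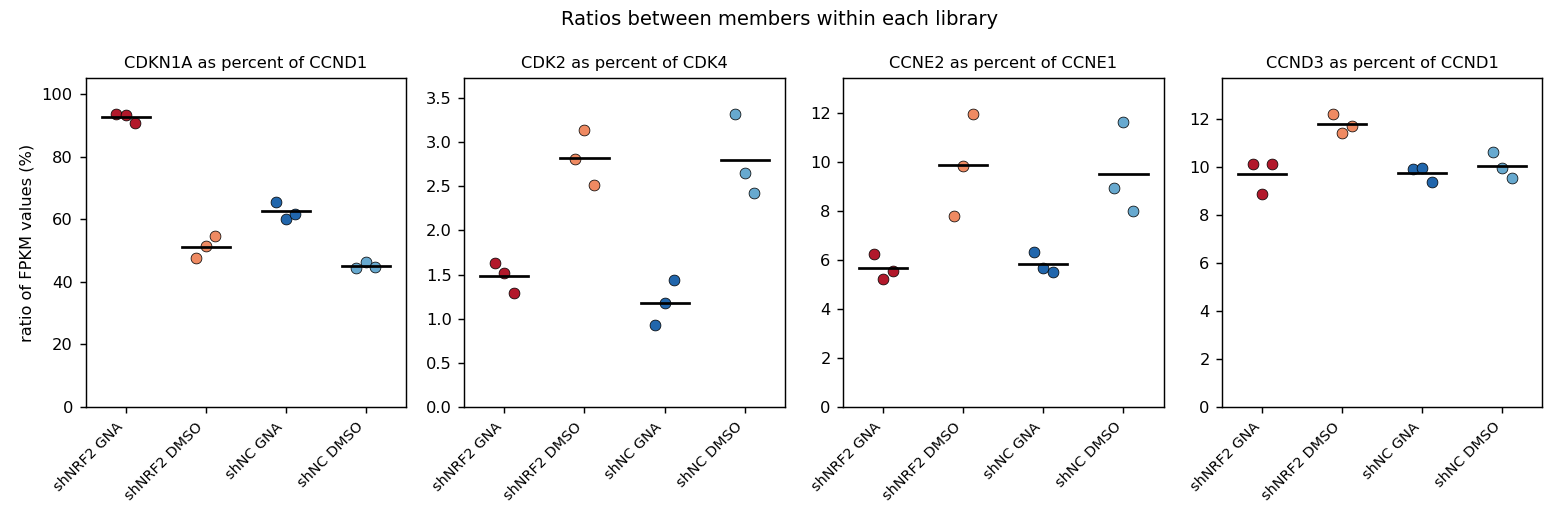
Ratio of FPKM values between pairs of genes in each library (points, percent, axes from 0) with the group mean (bar), for CDKN1A over CCND1, CDK2 over CDK4, CCNE2 over CCNE1 and CCND3 over CCND1. CDKN1A over CCND1 separates all 4 groups, with means of 92.7% in shNRF2 GNA and 45.1% in shNC DMSO.

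Other G1 cyclins and inhibitors were scarcely present. CDKN2B (p15) had 0 counts in all 12 libraries and CDKN2A (p16 and ARF) 1 count in 1 library. A count of 0 allows up to 3 counts, or at most 0.233 CPM of the total in the shallowest library, and covers counting error only. Loss of the CDKN2A locus is a known feature of A549. CDKN1C (p57) had 0 to 2 counts per library. CDKN2D (p19) averaged 1.41 CPM in shNRF2 GNA, 1.54 CPM in shNRF2 DMSO, 1.86 CPM in shNC GNA and 2.68 CPM in shNC DMSO, with no call in the 5 comparisons. Without shNC DMSO library 1 it was called lower with the hairpin under DMSO (log2 -0.96, edgeR adjusted p = 0.041). CCND2 (cyclin D2) averaged 0.883 CPM in shNRF2 DMSO and 0.353 CPM in shNC DMSO, the 1 comparison in which it was called (log2 1.32, edgeR adjusted p = 0.046), on 4 to 15 counts per library.

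Genes that act downstream of these kinases were lower with GNA too. All 20 listed genes of S phase entry, which E2F factors turn on, were lower with GNA in shNRF2 cells (17% of all genes were called lower), with a median log2 change of -1.03. In shNC cells all 20 were lower too (16.1% of all genes), with a median of -0.84. The counts were the same under the 3 other scalings tried and without shNC DMSO library 1. This list, like the members and the other lists, was chosen with earlier results of these data known. CCNA2, the S phase cyclin partner of CDK2, stood at 7.89 ± 0.280 CPM in shNRF2 GNA and 21.2 ± 1.96 CPM in shNRF2 DMSO, a log2 change of -1.43 (edgeR adjusted p = 7.4e-11). RRM2, a subunit of ribonucleotide reductase, changed by -1.36 in shNRF2 cells and -1.05 in shNC cells. MCM10, a replication initiation factor, changed by -1.33 in shNRF2 cells and -1.02 in shNC cells. Under DMSO the hairpin raised 8 of the 20 and lowered 0, beside 16.8% of all genes higher and 18.3% lower, with CDC6, the licensing factor, at 86.5 ± 2.64 CPM in shNRF2 and 62.9 ± 1.48 CPM in shNC (log2 0.46, edgeR adjusted p = 7.1e-07). That count was 6 without shNC DMSO library 1 and 12 with library totals as scaling. Under GNA 1 of the 20, CDC6, was higher and 4 were lower in shNRF2, beside 12.8% and 13.3% of all genes. The response to GNA was lower in shNRF2 for 4 of the 20, beside 3.24% of all genes, for 7 with library totals and for 2 without shNC DMSO library 1.

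Of 13 RB and E2F genes, 6 fell and 0 rose with GNA in shNRF2 cells, and 4 fell and 0 rose in shNC cells; library totals as scaling gave 2 higher and 4 lower in shNC. Of all genes 17% fell and 16.7% rose in shNRF2 cells, and 16.1% fell and 14.6% rose in shNC cells. E2F1 changed by -0.93 ± 0.18 in shNRF2 cells and -0.83 ± 0.18 in shNC cells, and RBL1, the p107 pocket protein, by -0.72 ± 0.10 and -0.49 ± 0.11. TFDP1, the dimer partner of E2F, stood at 25.1 ± 0.958 CPM in shNC GNA and 36.8 ± 3.15 CPM in shNC DMSO. Under DMSO the hairpin raised 4 of the 13, among them RBL1 (0.34, edgeR adjusted p = 0.010), and lowered 1, E2F4, where 16.8% of all genes were higher and 18.3% lower. Under GNA the hairpin changed 0 of the 13 in edgeR's test, where the list median was -0.07, 1 had an unadjusted p under 0.05, and 1 was called lower without shNC DMSO library 1.

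Among 18 genes of CDK activation and of cyclin or inhibitor turnover, 1 rose and 5 fell with GNA in shNRF2 cells, and 0 rose and 10 fell in shNC cells. The 6 called in shNRF2 cells are near the 33.7% of all genes called there; in shNC cells 14.6% of all genes rose and 16.1% fell. With library totals as scaling the counts were 3 higher and 4 lower in both lines. The hairpin raised 2 and lowered 7 of the 18 under DMSO, or 4 and 3 with library totals, beside 16.8% of all genes higher and 18.3% lower. Under GNA it raised 2, CKS1B and AMBRA1, and lowered 1, CDK7. That is a smaller share than the 26.1% of all genes called there (12.8% higher, 13.3% lower). CDC25A, a phosphatase that activates CDK2, changed by -0.91 ± 0.14 in shNRF2 cells and -0.77 ± 0.13 in shNC cells. DTL, a part of the ligase that degrades p21 in S phase, changed by -1.07 ± 0.14 in shNRF2 cells and -0.76 ± 0.14 in shNC cells. WEE1, which phosphorylates and inhibits CDKs, was at 6.41 ± 0.141 CPM in shNRF2 GNA and 11.4 ± 1.29 CPM in shNRF2 DMSO. The hairpin lowered CDK7, the catalytic subunit of the CDK-activating kinase, by -0.30 under GNA (edgeR adjusted p = 0.0054) and -0.53 under DMSO (edgeR adjusted p = 5.1e-06). It raised CKS1B, a cofactor for the degradation of p27, by 0.42 under GNA (edgeR adjusted p = 0.0078) and 0.41 under DMSO (edgeR adjusted p = 0.0050). AMBRA1, which directs the degradation of D-type cyclins, was at 24.8 ± 1.62 CPM in shNRF2 GNA and 19.6 ± 0.302 CPM in shNC GNA (log2 0.34, edgeR adjusted p = 0.0081).

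CDKN1A can be set beside other p53 targets. Of 22 such genes, 8 rose and 1 fell with GNA in each line, and library totals as scaling gave 14 rises in shNC. The gene that fell was PLK2 in shNRF2 cells (-0.50) and TIGAR in shNC cells (-0.50). Of all genes 16.7% rose and 17% fell in shNRF2 cells, and 14.6% rose and 16.1% fell in shNC cells. SESN2, a stress-induced regulator of growth signalling, changed by 1.06 ± 0.07 in shNRF2 cells and 1.24 ± 0.07 in shNC cells. GADD45A changed by 1.02 ± 0.06 in shNRF2 cells and 0.70 ± 0.06 in shNC cells. GDF15 stood at 44.8 ± 1.79 CPM in shNRF2 GNA and 27.7 ± 1.76 CPM in shNRF2 DMSO. The hairpin raised 4 and lowered 8 of the 22 under each treatment. Of all genes 12.8% were higher and 13.3% lower under GNA, and 16.8% higher and 18.3% lower under DMSO, so the number raised lies near the background. TP53I3 was lower in shNRF2 cells by -0.79 ± 0.07 under GNA and by -0.77 ± 0.07 under DMSO, and PLK2 by -0.93 ± 0.05 under GNA (edgeR adjusted p = 2.4e-14).

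Among 23 transcription regulators of these genes, 7 rose and 5 fell with GNA in shNRF2 cells, and 12 rose and 4 fell in shNC cells, or 14 and 2 with library totals. Of all genes 16.7% rose and 17% fell in shNRF2 cells, and 14.6% rose and 16.1% fell in shNC cells, so the numbers that fell lie near the background. Under DMSO the hairpin raised 6 and lowered 7, beside 16.8% and 18.3% of all genes, and raised 3 without shNC DMSO library 1. Under GNA it raised 3 and lowered 6, beside 12.8% and 13.3% of all genes, so the number raised lies near the background. NFE2L2, the hairpin's own target, is in this list and was among the genes lowered under both treatments. MYC, which represses CDKN1A and promotes G1 progression, stood at 48.7 ± 2.26 CPM in shNRF2 GNA and 61.4 ± 2.06 CPM in shNRF2 DMSO, and at 57.9 ± 5.03 CPM in shNC GNA and 71.7 ± 4.42 CPM in shNC DMSO. Its GNA change was -0.34 ± 0.07 in shNRF2 cells (edgeR adjusted p = 0.00043) and -0.31 ± 0.07 in shNC cells (edgeR adjusted p = 0.0010). ATF3, a stress-induced factor, rose by 1.24 ± 0.06 in shNRF2 cells and 0.99 ± 0.06 in shNC cells. MXD1, an antagonist of MYC, rose by 0.90 ± 0.08 in shNRF2 cells and its response was larger there than in shNC cells by 0.51 (edgeR adjusted p = 0.0031). EGR1, an immediate early factor, stood at 91.3 ± 2.18 CPM in shNRF2 GNA and 123 ± 13 CPM in shNRF2 DMSO, and at 80.3 ± 5.19 CPM in shNC GNA and 54.0 ± 3.95 CPM in shNC DMSO. It fell with GNA in shNRF2 cells (-0.43 ± 0.07) and rose in shNC cells (0.57 ± 0.07), a difference of -1.001 (edgeR adjusted p = 1.4e-07). FOSL1, an AP-1 factor, was lower in shNRF2 cells by -0.65 ± 0.06 under GNA and -0.81 ± 0.07 under DMSO.

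**Figure D5:**
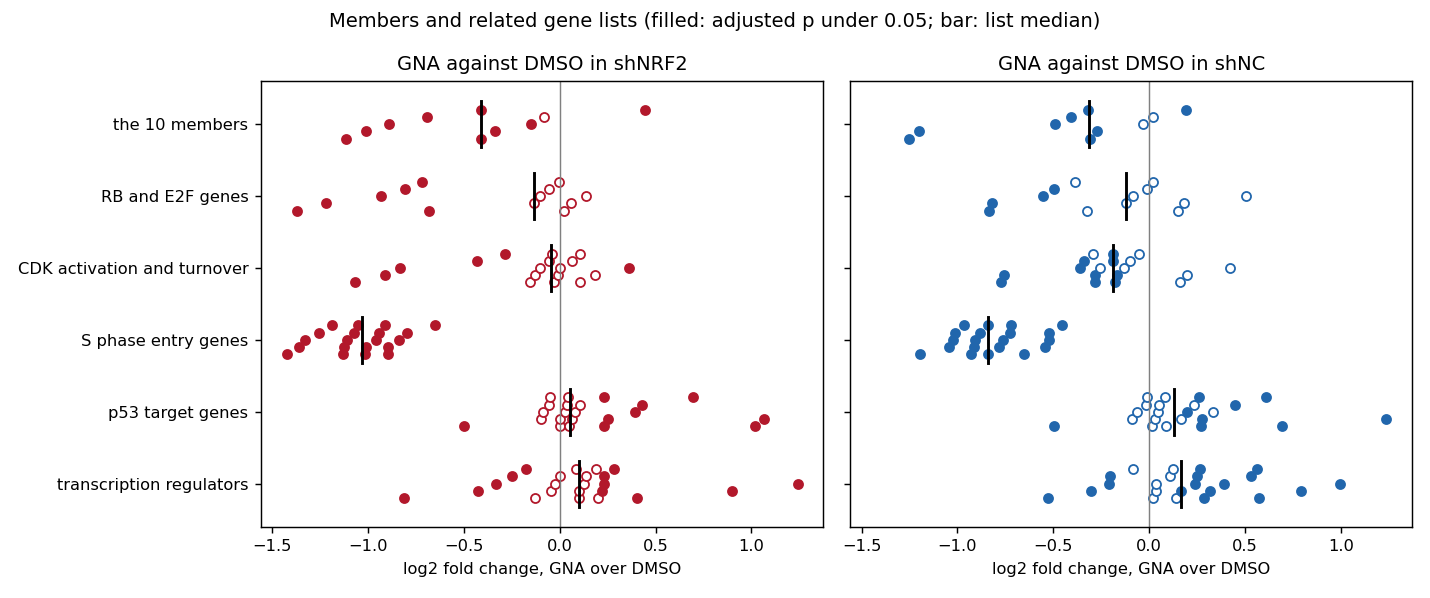
Log2 fold change with GNA of the 10 genes and of the genes of 5 related lists, in shNRF2 cells (left) and shNC cells (right); each point is a gene, filled where the edgeR adjusted p is under 0.05, and the bar is the list median. The S phase entry genes all lie left of 0, with medians of -1.03 in shNRF2 cells and -0.84 in shNC cells.

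Across the 12 libraries, the genes whose centred log2 CPM profiles lay nearest to the members' were found among those averaging at least 5 CPM. The measure is the root mean square difference. For CCND1 the nearest were TUBB4B (0.045) and CAPN2 (0.049), where the median over all genes compared was 0.32. CDKN1A lay nearest to PSMD8 (0.053). CCNE2 lay nearest to MAD2L1 (0.17) and CDK2 to LMNB1 (0.17), against medians of 0.63 for both members. CCND3 lay nearest to FRMD3 (0.090), CCNE1 to PLIN3 (0.077), CDK6 to MAP7D2 (0.039) and CDKN2C to SLF1 (0.14). The small value of CDK6 goes with a nearly flat profile. Its root mean square around its own mean was 0.072, beside 0.27 for CCND1, and its median over all genes compared was 0.21.

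RefSeq promoter windows (GRCh38.p14, 250 bases before to 50 after a transcript start) matched 7 of the 10 genes by symbol. CCND1, CCNE2 and CDK2 had no window, so the motif search does not cover them. Both strands were searched for 4 motifs. The E2F site (TTTCCCGC, TTTCGCGC, TTTGCCGC or TTTGGCGC), the CHR element (TTTGAA or TTCGAA) and the heat shock element (alternating GAA and TTC units with any bases between) had no match in the 12 windows of these 7 genes. Among 35116 windows of all genes these motifs were in 3.31%, 16.4% and 0.49%. The core of the antioxidant response element, TGACNNNGC, through which NRF2 acts, was in 13.3% of all windows. It matched on the reverse strand in the windows of CCNE1, CDK4 and CDKN1B, and no motif overlapped another. The windows of CDKN1B and CCNE1 are shown because the hairpin moved these genes in opposite directions under DMSO. CCNE1 was not called with the hairpin under GNA. The CDK4 window, with its match at -231, is not shown. CDK4 was not called with the hairpin under either treatment with TMM (0.05 under GNA, 0.10 under DMSO). The CDKN1A window is shown because it holds no match while its GNA response differed between the lines. Capitals mark the match, which starts at position -17 from the transcript start in CDKN1B and at -238 in CCNE1. A match of these letters is a description, not a site, and its absence says only that the letters are not in this window.
CDKN1B chr12:12717118-12717417, plus strand: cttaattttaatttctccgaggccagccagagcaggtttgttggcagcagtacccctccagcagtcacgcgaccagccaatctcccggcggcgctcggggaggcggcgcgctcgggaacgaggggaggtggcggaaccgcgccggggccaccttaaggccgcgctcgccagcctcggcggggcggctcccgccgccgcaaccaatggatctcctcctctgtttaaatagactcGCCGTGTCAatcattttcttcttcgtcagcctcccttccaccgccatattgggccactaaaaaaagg
CCNE1 chr19:29811741-29812040, plus strand: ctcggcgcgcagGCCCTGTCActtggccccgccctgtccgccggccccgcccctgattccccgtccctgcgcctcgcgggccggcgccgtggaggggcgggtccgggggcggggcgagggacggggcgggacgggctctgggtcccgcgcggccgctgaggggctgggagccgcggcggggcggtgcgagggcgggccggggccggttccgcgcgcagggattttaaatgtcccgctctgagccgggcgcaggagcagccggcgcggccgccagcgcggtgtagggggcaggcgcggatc
CDKN1A chr6:36678464-36678763, plus strand: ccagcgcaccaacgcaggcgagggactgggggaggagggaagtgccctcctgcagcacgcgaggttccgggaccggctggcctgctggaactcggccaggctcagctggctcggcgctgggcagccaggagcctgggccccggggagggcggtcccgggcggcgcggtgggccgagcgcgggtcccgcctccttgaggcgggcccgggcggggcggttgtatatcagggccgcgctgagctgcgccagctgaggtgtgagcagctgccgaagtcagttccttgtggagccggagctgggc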

How the data were processed

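The authors deposited raw counts per gene and FPKM values per gene for 12 libraries of A549/DDP cells. Per the submitters' processing notes, the build was GRCh38 and DESeq2 was used, its role not stated. No aligner, counter or strand setting is given in the sources used. For 100% of 12835 genes checked, the deposited FPKM equalled the count over column total and a constant gene length (relative tolerance 0.001). Library totals were 12848607 to 17192671 counts. Single-cell data named in the design were not analysed here.

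Genes were filtered with filterByExpr (minimum count 10, minimum total 15), TMM-scaled, and fitted over all 12 libraries by edgeR 4.0.16 (quasi-likelihood, glmQLFit and glmQLFTest; R 4.3.3) with a coefficient for each group. Calls are Benjamini-Hochberg adjusted p under 0.05 over 15653 genes. The test code was run on simulated counts with planted changes. That run drew independent libraries, so it cannot say whether the replicate spread of these data is technical. An exact permutation test of 3 against 3 cannot give a p under 0.1. Alternatives were other scalings and filters, DESeq2 1.42.0, limma 3.58.1 on log2(FPKM + 1) and log2(FPKM + 0.1), a replicate block, a fit of just the compared groups, and omission of each library in turn. List counts under other scalings, and without the library that stood apart, were added after seeing the data. The members and lists were chosen with earlier results of these data known. Named genes were the 10 members, NFE2L2, the other G1 cyclins and inhibitors, up to 3 called genes per list and direction with the largest change and at least 5 CPM, and the nearest profiles; the text gives a part, and 1 nearest profile is not reported here. MXD1's and EGR1's differences between the lines, and opposite-strand partner genes, were chosen for naming after their values were seen. Gene positions are from GENCODE 29 on GRCh38.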

Additional observations from a re-analysis of the deposited data

Results flagged for a closer look

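The response to GNA was called different between the lines in a direct test for 2 of the 10 genes, where 6.82% of all genes were called. For CCND3 the difference, shNRF2 minus shNC, was -0.385 on the log2 scale (edgeR adjusted p = 0.0095). GNA lowered it in both lines, by more in shNRF2 cells, and the call held in all 21 alternatives, with adjusted p-values from 0.0021 to 0.043. For CDKN1A the difference was 0.249 (edgeR adjusted p = 0.043). GNA raised it in both lines, by more in shNRF2 cells. The call was lost in 13 of 21 alternatives, over which the adjusted p ran from 0.0043 to 0.13.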

How the results depend on the processing

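For the 10 genes in 5 comparisons, 38 of 50 results kept their direction and their side of the threshold in every alternative run. The values that turned direction were all uncalled. The GNA change of CDK4 in shNC became 0.0015 with upper-quartile factors, 0.072 with library totals, 0.072 and 0.074 with limma on log2(FPKM + 1) and log2(FPKM + 0.1), and ran from -0.091 to 0.025 without single libraries. Without single libraries the hairpin change of CDKN2C in DMSO ran from -0.023 to 0.17, and the differences of the GNA responses ran from -0.11 to 0.0076 for CDK4 and from -0.084 to 0.22 for CCNE2. The genes called in the difference of responses numbered 1068, but 657 and 603 with the 2 limma fits, and 700 to 1437 without single libraries, 1437 being without shNC DMSO library 1. The members called there were 2, but 1 with library totals, no filter and either limma fit, and 1 to 2 without single libraries. The call lost was CDKN1A. Library totals set the median change of all genes with GNA in shNC at 0.12, beside 0.02 with TMM, and gave 3543 higher and 1542 lower calls, against 2284 and 2526 with TMM; in shNRF2 they gave 3356 and 2091, against 2617 and 2657, and for the hairpin in DMSO 3226 and 2266, against 2636 and 2872. For the difference of responses they gave 414 higher and 674 lower, against 561 and 507. Limma on log2(FPKM + 1) split the calls with GNA into 3064 higher and 1430 lower in shNC, and 3165 and 1997 in shNRF2. The cause was not tested. Counts of shNC DMSO library 1 differed from its replicates' by chi-square values of 8.05 and 6.31 per degree of freedom, beside 3.74 for the replicates compared with each other; the counts of members called were the same without it. The numbers gave no pairing: 3 of 18 same-number pairs correlated above 0.1, and 3 of 12 libraries correlated best with their own number. With replicate as a block, 915 genes were called in the difference of responses, and CDK6 in shNRF2 lost its call (adjusted p = 0.059); no other member call changed. Depth limits CDK2, CCND2 and CDKN2D, which rest on under 80 counts per library. It also limits CCNE2 under GNA, at 44 to 53 counts in shNRF2 GNA and 56 to 62 in shNC GNA.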
